A study of Mus musculus with 6 samples.

Results

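Metallothioneins and the transporters that move zinc and manganese across membranes were followed in polyadenylated RNA of mouse liver. The genes were taken by symbol from the deposited count table. They are the metallothioneins Mt1, Mt2 and Mt3, the metal sensor Mtf1, 10 exporters of the Slc30 family, 14 importers of the Slc39 family and the divalent metal transporters Slc11a1 and Slc11a2, 30 of the 30029 genes listed. Libraries labelled ATP7B knockout (n = 3) were set against libraries labelled wild type (n = 3). All 6 came from livers of mice fed a high-fat diet for 24 weeks, so both groups carry that diet. The genotype is written Atp7b-/- in the series' design, and no deleted exon, strain, sex or age is given. Nothing says that each library is 1 animal. The p-values therefore cover the variation among these 6 libraries, part or all of which may be technical. Atp7b, the copper ATPase named in the genotype, had 1987, 1908 and 2087 counts in the libraries labelled knockout and 909, 1192 and 2051 counts in those labelled wild type. The targeted gene's total was thus not lower in the libraries labelled knockout (log2 fold change 0.05 ± 0.23 SE, edgeR adjusted p = 0.939). A gene total does not check the labels where a mutant transcript is still made, and all directions go by the labels.

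Total counts per library ran from 57886524 to 70965999. Levels are CPM, counts scaled to library size with TMM, edgeR's trimmed-mean normalization. Positive log2 fold changes mean a higher level in the libraries labelled knockout. Hepatocyte markers were abundant, with a summed level of 58200 to 75486 CPM in the libraries labelled knockout and 60656 to 67970 CPM in those labelled wild type, and none of the 8 was at 0. Most of the sum was Alb, at 40952 ± 3910 CPM in the libraries labelled knockout and 31591 ± 3188 CPM in those labelled wild type. The sum therefore does not show the other markers. Alb was the 1 marker with a positive log2 fold change (0.37), and 7 were negative. The median of the 8 was -0.31, and 0 were called by edgeR. Stellate cell markers summed to 382 to 552 CPM in the libraries labelled knockout and 174 to 201 CPM in those labelled wild type, with 1 of 6 called higher, 0 lower and none at 0, and their part in the results was not tested. In whole liver, fewer cells of a type and less RNA per cell cannot be told apart.

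Metallothioneins are small cysteine-rich proteins that hold zinc and copper in the cytosol, and in liver their genes are induced by both metals, by glucocorticoids and by interleukin 6. Mtf1 is the zinc-sensing transcription factor that binds metal response elements and drives Mt1, Mt2 and the zinc exporter Slc30a1. Slc30 proteins move zinc out of the cytosol, out of the cell or into vesicles, and Slc39 proteins move it in, while Slc30a10, Slc39a8 and Slc39a14 also carry manganese in hepatocytes.

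The control regions of 4 genes are shown because Mtf1 acts on Mt1, Mt2 and Slc30a1 through metal response elements, and because Slc30a10 had the smallest p of the genes studied. Each runs from 250 bases before to 50 bases after the RefSeq start, on the plus strand of GRCm38.p6. That build is older than the GRCm39 named in the submitters' processing notes, so these coordinates are not those of the count table. Capitals mark matches to the core letters TGCACNC or TGCGCNC of a metal response element on either strand.
Mt1 (chr8:94178839-94179138, + strand): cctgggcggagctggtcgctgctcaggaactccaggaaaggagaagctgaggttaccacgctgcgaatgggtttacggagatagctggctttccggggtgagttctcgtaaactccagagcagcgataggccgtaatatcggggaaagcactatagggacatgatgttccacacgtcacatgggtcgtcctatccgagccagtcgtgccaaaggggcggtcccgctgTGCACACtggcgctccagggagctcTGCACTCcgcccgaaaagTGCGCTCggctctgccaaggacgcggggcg
Mt2 (chr8:94172368-94172667, + strand): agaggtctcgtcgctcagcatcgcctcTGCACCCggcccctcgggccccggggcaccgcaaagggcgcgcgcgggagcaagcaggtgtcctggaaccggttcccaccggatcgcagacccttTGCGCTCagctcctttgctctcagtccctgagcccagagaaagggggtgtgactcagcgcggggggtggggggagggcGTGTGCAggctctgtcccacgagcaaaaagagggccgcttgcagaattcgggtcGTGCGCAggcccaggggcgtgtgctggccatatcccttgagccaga
Slc30a1 (chr1:191906531-191906830, + strand): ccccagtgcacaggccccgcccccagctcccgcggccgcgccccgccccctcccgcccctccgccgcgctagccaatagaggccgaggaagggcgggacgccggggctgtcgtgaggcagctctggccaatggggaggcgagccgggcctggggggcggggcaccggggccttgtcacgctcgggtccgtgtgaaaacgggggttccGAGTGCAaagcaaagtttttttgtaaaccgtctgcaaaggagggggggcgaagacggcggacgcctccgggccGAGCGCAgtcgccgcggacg
Slc30a10 (chr1:185454598-185454897, + strand): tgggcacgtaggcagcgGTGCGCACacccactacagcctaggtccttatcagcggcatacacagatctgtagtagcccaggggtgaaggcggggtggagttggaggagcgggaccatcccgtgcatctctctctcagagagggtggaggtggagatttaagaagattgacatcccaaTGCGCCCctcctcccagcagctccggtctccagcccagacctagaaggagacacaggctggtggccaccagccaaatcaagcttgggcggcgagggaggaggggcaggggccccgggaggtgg
The Mt2 window held 4 matches, the Mt1 and Slc30a10 windows 3 each, and the Slc30a1 window 2. In Slc30a10, the matches at -233 and -232 overlap on opposite strands, with positions counted from 0 at the start and giving the leftmost base. In Mt1 the matches lay at -23, 2 and 20, and in Mt2 at -223, -128, -50 and 4. These positions hold for the RefSeq start used, and matches around any other start of these genes were not sought. At least 1 match was present in 25.7% of 32851 promoter windows of this length, at least 3 in 1.97% and at least 4 in 0.517%. A window was on hand for 25 of the 30 genes, and 14 of those 25 had a match in at least 1 of their windows, as did 28.2% of all genes with a window. A match describes letters in the reference and is not a measured binding site.

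Of the 30 genes, 27 passed the filter on low counts and 0 were called at an adjusted p under 0.05 by edgeR's quasi-likelihood test, where 253 of 17606 tested genes (1.44%) were called, 0.932% as higher and 0.506% as lower. At an unadjusted p under 0.05 5 of the 27 had a higher and 8 a lower level, 48.1% in all. Of all tested genes 19.7% did so, 12% higher and 7.7% lower. DESeq2 called 6 of the 27 (22.2%) and 10.6% of all genes, and limma voom called 0 of the 27 and 0.392% of all genes. At an unadjusted p under 0.05 limma voom had 14 of the 27 (51.9%) and 3419 of the 17606 tested genes. With total counts edgeR called 4 of the 27 (14.8%) and 5.73% of all genes, and with no filter 1 of 29 and 1.7%. It called 0 of the 27 with DESeq2 size factors (1.29% of all genes), with a filter of 10 counts in 3 libraries (1.31%), with overlapping genes summed (1.44%) and with the replicate number as a block (0.0227%). With 1 library left out it called 1 of the 27 without labelled wild-type replicate 1 (2.07% of all genes). It called 0 of the 27 without labelled knockout replicate 1, 2 or 3 (0.0607%, 4.96% and 0.184% of all genes) and without labelled wild-type replicate 2 or 3 (0% and 0.0217%). Genes whose groups did not overlap in any library numbered 5 higher and 9 lower, 51.9% of the 27. The corresponding share of all tested genes was 25.7%, of which 13.7% were higher and 12% lower. With total counts in place of TMM the numbers clear of overlap became 8 higher and 1 lower. The share of all tested genes clear of overlap under that scaling was not counted, so this split is not a result about the 27. That scaling moved the median of all genes to 0.31, against -0.02 with TMM, and the median of the 27 genes to 0.08, against -0.25. Less the median of all genes, the median of the 27 was -0.23 under either scaling. A change of scaling moves all genes by nearly the same amount, which the subtraction removes. The 2 values therefore had to agree and do not test the choice of scaling.

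**Figure D1:**
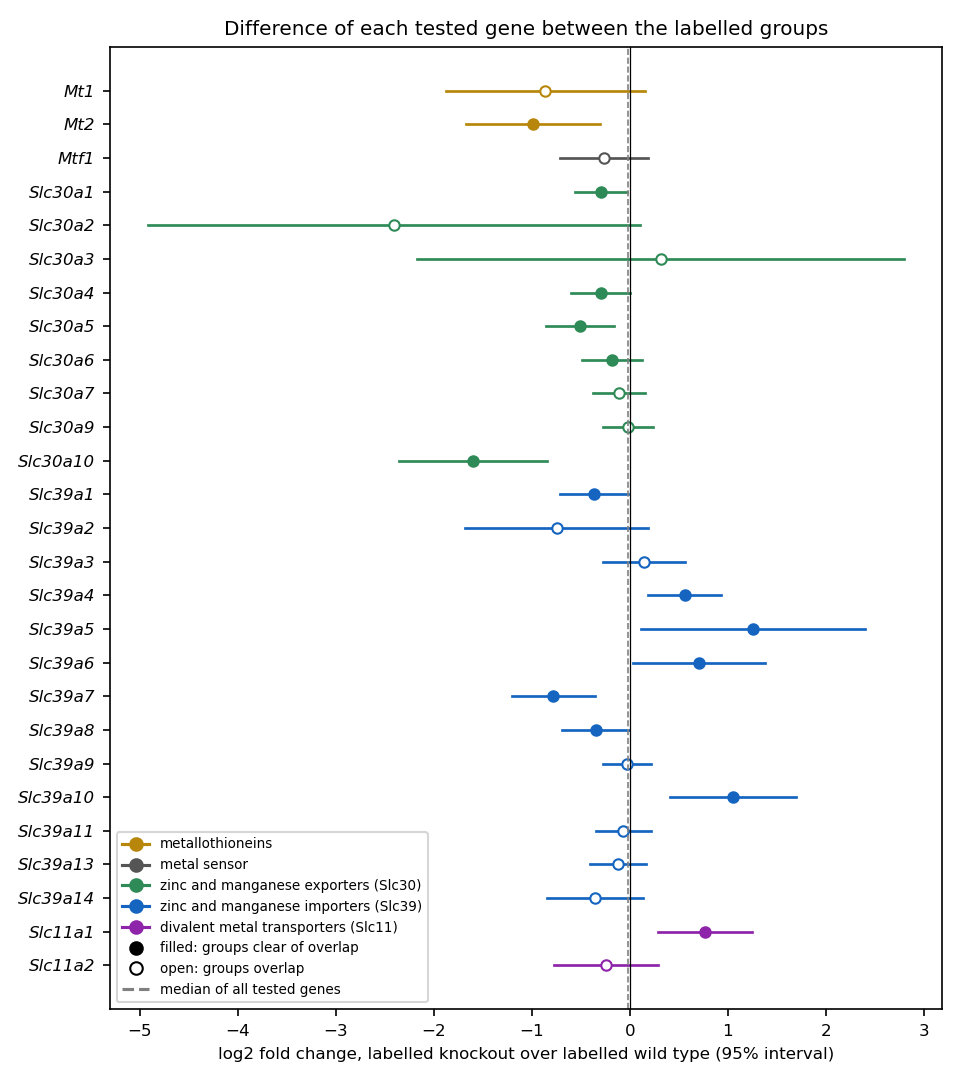
Log2 fold change of each of the 27 tested genes, labelled knockout over labelled wild type (x axis), with its 95% interval as a line, genes in rows coloured by family, TMM scaling. Filled points mark the 14 genes whose groups did not overlap, Slc30a10 and Slc39a7 lie left of 0 and Slc39a10, Slc39a4 and Slc11a1 right of it, and under total counts 10 of the genes, at -0.30 to -0.02 here, change sign.

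Mt1 and Mt2, the most abundant genes of the set per kilobase of transcript, had lower mean levels in the libraries labelled knockout, without passing the test. Mt1 (chromosome 8, 94905710 to 94906955, GRCm39) was at 190, 341 and 496 CPM in the libraries labelled knockout and at 958, 544 and 368 CPM in those labelled wild type. The groups overlapped, since labelled knockout replicate 3 stood above labelled wild-type replicate 3. The mean was 342 ± 153 CPM in the libraries labelled knockout and 623 ± 303 CPM in those labelled wild type (SD, n = 3 each). The 95% interval of the log2 fold change, -0.86, reached from -1.88 to 0.15 (edgeR adjusted p = 0.332). Mt2, which begins 6.42 kb from the start of Mt1, was at 98.3, 107 and 154 CPM in the libraries labelled knockout and at 348, 184 and 181 CPM in those labelled wild type. Its groups did not overlap, and its log2 fold change was -0.99 ± 0.30 (SE, edgeR adjusted p = 0.119, and DESeq2 adjusted p = 0.0125). With total counts Mt1 was at -0.51 and Mt2 at -0.64 on the log2 scale. Labelled wild-type replicate 1 had the highest level of both genes. Without it the log2 fold changes were -0.42 for Mt1 and -0.61 for Mt2 (edgeR adjusted p = 0.645 and 0.188), and without labelled knockout replicate 3 they were -1.23 and -1.21 (0.251 and 0.117).

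Together Mt1 and Mt2 made up 0.0324%, 0.0445% and 0.0813% of all counts in the libraries labelled knockout and 0.117%, 0.0644% and 0.0493% in those labelled wild type. These shares overlap between the groups. The number of Mt1 counts per Mt2 count was 1.93, 3.20 and 3.22 in the libraries labelled knockout and 2.75, 2.96 and 2.03 in those labelled wild type, also overlapping. Mt1 and Mt2 are paralogs, so reads could be shared between them. Mt2 also overlaps the antisense gene Gm45774 over 749 bases, and with the counts of Gm45774 added its log2 fold change was -0.96 (edgeR adjusted p = 0.102). Mt3, the brain metallothionein, was at 0 counts in all 6 libraries, which allows up to 0.0339 to 0.0578 CPM, the worth of 3 counts per library.

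Mtf1 itself was at 16.9, 11.9 and 10.8 CPM in the libraries labelled knockout and at 15.2, 14.3 and 18.2 CPM in those labelled wild type. The groups overlapped, and the log2 fold change of -0.27 had an interval of -0.72 to 0.18 (edgeR adjusted p = 0.515), turning to 0.06 under total counts. Among 5 other genes listed as acting under Mtf1, 0 were called by edgeR, with 2 higher and 0 lower at an unadjusted p under 0.05 and a median log2 fold change of 0.24, where all tested genes had -0.02. The LIM-domain protein gene Csrp1 was at 25.9, 18.3 and 37.8 CPM in the libraries labelled knockout and at 16.9, 15.7 and 13.8 CPM in those labelled wild type (log2 fold change 0.82 ± 0.25 SE, edgeR adjusted p = 0.119). The stress gene Ndrg1 was at 9.15, 5.90 and 10.7 CPM in the libraries labelled knockout and at 5.72, 1.43 and 3.89 CPM in those labelled wild type (1.22 ± 0.47 SE, edgeR adjusted p = 0.206). Neither passed, though neither had groups that overlapped.

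**Figure D2:**
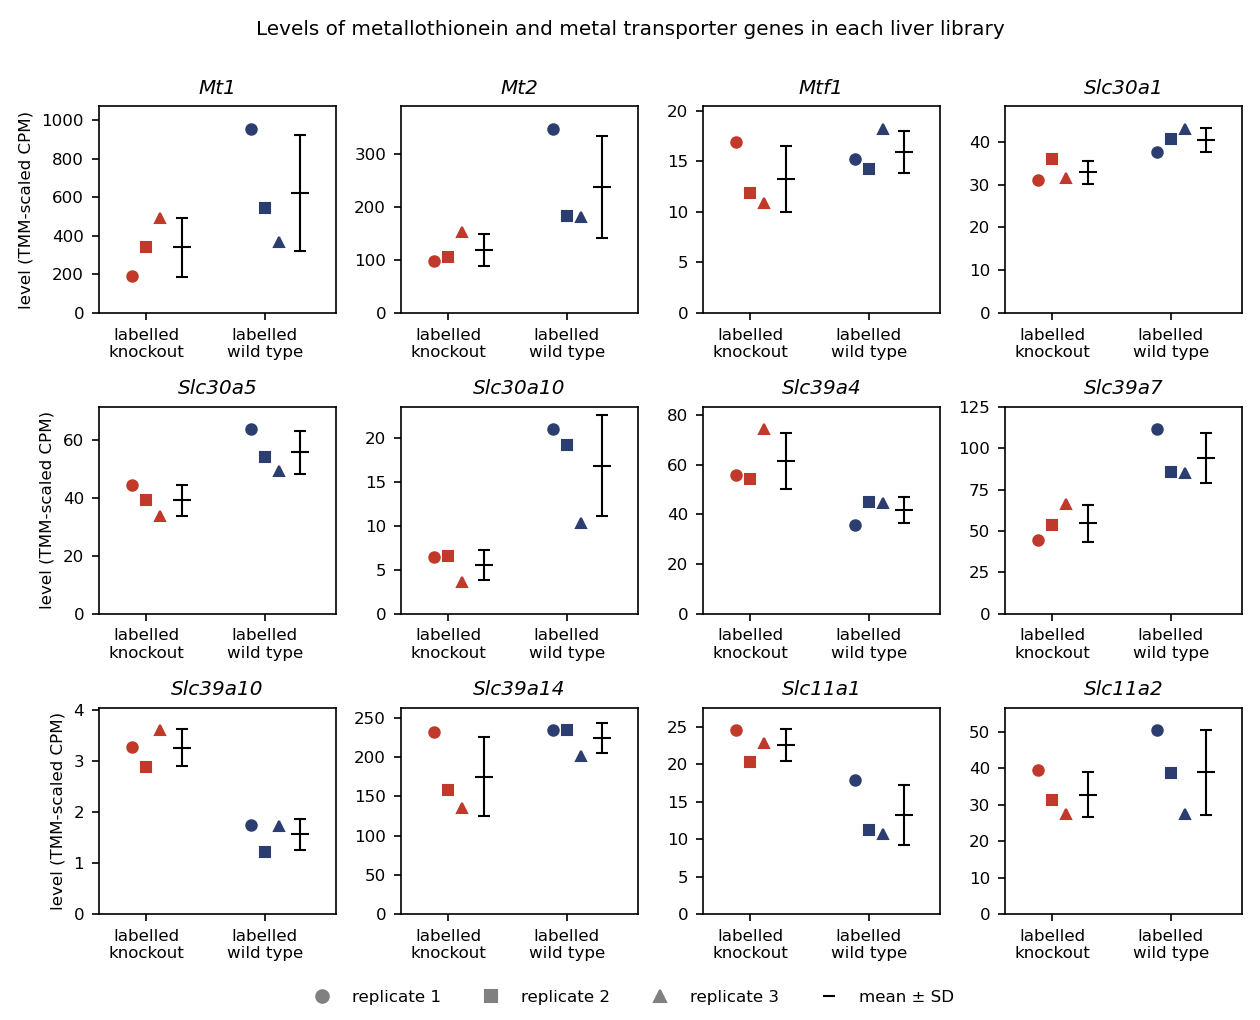
Level of 12 of the genes in each library in TMM-scaled CPM (y axes, each from 0), labelled knockout on the left and labelled wild type on the right, with 1 point per library and the mean ± SD (n = 3) in black. Labelled wild-type replicate 1 is the highest library for Mt1, Mt2, Slc30a5, Slc30a10, Slc39a7, Slc39a14 and Slc11a2, and the groups do not overlap for Mt2, Slc30a1, Slc30a5, Slc30a10, Slc39a4, Slc39a7, Slc39a10 and Slc11a1.

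Among the Slc30 exporters, 9 of 10 were tested, 0 were called by edgeR, and 8 of the 9 had negative log2 fold changes with TMM, but 3 of 9 with total counts. The gene with the smallest p of the set was Slc30a10, the exporter by which hepatocytes pass manganese to bile (chromosome 1, 185187045 to 185200959, GRCm39). It was at 6.46, 6.59 and 3.56 CPM in the libraries labelled knockout and at 21.0, 19.2 and 10.3 CPM in those labelled wild type. Every library labelled knockout lay below every library labelled wild type. The mean was 5.54 ± 1.72 CPM in the libraries labelled knockout and 16.8 ± 5.69 CPM in those labelled wild type, 3.04-fold lower (log2 fold change -1.60 ± 0.33 SE, interval -2.36 to -0.85, edgeR adjusted p = 0.0551). It passed with DESeq2 (-1.59, adjusted p = 1.41e-04), with total counts (-1.30, edgeR adjusted p = 0.0453) and without a filter (-1.58, edgeR adjusted p = 0.0424). Over all 14 alternatives its log2 fold change ran from -1.86 to -1.30, and it did not pass under 11 of them. These included limma voom (adjusted p = 0.0732) and each library left out (edgeR adjusted p = 0.0550 to 0.196).

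Slc30a1, the plasma membrane zinc exporter under Mtf1, was at 31.1, 36.0 and 31.6 CPM in the libraries labelled knockout and at 37.6, 40.5 and 43.1 CPM in those labelled wild type. The groups did not overlap with TMM, but the difference was small (log2 fold change -0.30 ± 0.12 SE, edgeR adjusted p = 0.210) and was 0.03 with total counts. Slc30a5, which loads zinc into the early secretory pathway together with Slc30a6, was at 44.6, 39.3 and 33.7 CPM in the libraries labelled knockout and at 63.8, 54.2 and 49.2 CPM in those labelled wild type. These groups did not overlap either (-0.51 ± 0.15 SE, edgeR adjusted p = 0.114, and -0.19 with total counts). Its partner Slc30a6, the endosomal Slc30a4, the Golgi transporter Slc30a7 and the mitochondrial Slc30a9 had log2 fold changes of -0.19, -0.30, -0.11 and -0.02, which were 0.14, 0.03, 0.21 and 0.31 with total counts, none past edgeR's test.

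The other exporters were at the edge of detection. Slc30a8, which fills the insulin granules of islet cells, had 0 counts in every library labelled knockout and 14, 4 and 8 counts in those labelled wild type. It did not pass the filter and was not tested. Its mean in the libraries labelled wild type, 0.159 CPM, was 4.13 times the worth of 3 counts per library labelled knockout. That ratio allows no error on the few labelled wild-type counts and is not a bound on the difference. Of 8 pancreas markers 4 were in the table, summing to 6.71 to 13.7 CPM in the libraries labelled knockout and 7.61 to 13.4 CPM in those labelled wild type. Nearly all of that was the elastase gene Cela1, with 10.3 ± 3.45 CPM in the libraries labelled knockout and 10.1 ± 2.58 CPM in those labelled wild type. The lipase Pnlip was at 0 throughout and Prss2 had 3 counts in 1 library. The vesicular transporter Slc30a2 had 0, 13 and 8 counts in the libraries labelled knockout and 8, 34 and 41 in those labelled wild type (edgeR adjusted p = 0.273). Synaptic Slc30a3 had 27, 16 and 11 counts in the libraries labelled knockout and 19, 0 and 12 in those labelled wild type (edgeR adjusted p = 0.920).

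Of the Slc39 importers 13 of 14 were tested and 0 were called by edgeR, with 5 positive and 8 negative log2 fold changes with TMM, and 8 positive and 5 negative with total counts. Importers with higher and with lower levels both had groups clear of overlap with TMM, 4 higher and 3 lower. With total counts 6 were clear higher and 0 clear lower, but no share of all genes was counted for that scaling. On the higher side with TMM were Slc39a4, Slc39a5, Slc39a6 and Slc39a10. Slc39a10, a plasma membrane importer that Mtf1 represses in mouse liver, was at 3.28, 2.89 and 3.62 CPM in the libraries labelled knockout and at 1.75, 1.22 and 1.74 CPM in those labelled wild type. That was 2.08-fold higher (log2 fold change 1.05 ± 0.28 SE, edgeR adjusted p = 0.0894, and 1.07 with DESeq2 adjusted p = 0.00767). It passed with total counts as well (1.39, edgeR adjusted p = 0.0466), but not under the other 12 alternatives. The same-strand gene Gm28151 lies within it over 951 bases, with 1.19 ± 0.177 CPM in the libraries labelled knockout and 1.31 ± 0.357 CPM in those labelled wild type. With its counts added, the level was 4.27, 4.14 and 4.95 CPM in the libraries labelled knockout and 3.18, 2.82 and 2.65 CPM in those labelled wild type. The groups stayed clear of overlap, at a log2 fold change of 0.63 ± 0.22 (SE, edgeR adjusted p = 0.171).

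Slc39a6, which pairs with Slc39a10 in a heteromer, was at 3.71, 2.47 and 3.68 CPM in the libraries labelled knockout and at 1.64, 2.44 and 1.97 CPM in those labelled wild type. Labelled knockout replicate 2 and labelled wild-type replicate 2 all but touched (log2 fold change 0.71 ± 0.30 SE, edgeR adjusted p = 0.237). Slc39a6 overlaps Elp2 on the opposite strand over 952 bases, and Elp2, at 27.0 ± 2.72 CPM in the libraries labelled knockout and 29.8 ± 1.97 CPM in those labelled wild type, was the more abundant of the pair in counts.

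Slc39a4, the importer that takes up dietary zinc in the gut, was at 55.7, 54.4 and 74.3 CPM in the libraries labelled knockout and at 35.9, 44.9 and 44.5 CPM in those labelled wild type. Its groups did not overlap (1.47-fold higher, log2 fold change 0.56 ± 0.16 SE, edgeR adjusted p = 0.109). It passed with DESeq2 (0.57, adjusted p = 0.0340) and with total counts (0.91, edgeR adjusted p = 0.0445), but not under the other 12 alternatives. Slc39a5, a basolateral zinc importer of epithelia, was at 1.07, 1.08 and 1.79 CPM in the libraries labelled knockout and at 0.886, 0.451 and 0.314 CPM in those labelled wild type (log2 fold change 1.26 ± 0.50 SE, edgeR adjusted p = 0.214). Labelled knockout replicate 3 was the highest library for Slc39a4 and for Slc39a5. The 6 bile duct markers, an epithelium other than hepatocytes, summed to 249, 79.7 and 631 CPM in the libraries labelled knockout and to 109, 100 and 80.8 CPM in those labelled wild type. The sum was highest in the same library, with 0 of 5 tested called and none at 0 in all libraries. Most of it was Spp1, at 232, 74.5 and 581 CPM in the libraries labelled knockout and 103, 90.4 and 74.8 CPM in those labelled wild type. Krt19, Krt7, Epcam, Sox9 and Cftr, at no more than 18.5 CPM each, were also highest in labelled knockout replicate 3. Without labelled knockout replicate 3 Slc39a4 was at 0.40 and Slc39a5 at 0.97 on the log2 scale (edgeR adjusted p = 0.244 and 0.465). The part of bile duct RNA in these values was not tested.

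On the lower side Slc39a7, which releases zinc from the endoplasmic reticulum, was at 44.3, 53.4 and 66.5 CPM in the libraries labelled knockout and at 112, 85.7 and 85.0 CPM in those labelled wild type. The groups did not overlap (1.72-fold lower, log2 fold change -0.78 ± 0.18 SE, edgeR adjusted p = 0.0683, and DESeq2 adjusted p = 0.00450), and with total counts the log2 fold change was -0.44 (edgeR adjusted p = 0.230). This value depends on how reads were assigned, since the same-strand gene Gm20427 covers 3312 bases of Slc39a7. Gm20427 was at 62.8, 54.5 and 40.4 CPM in the libraries labelled knockout and at 61.2, 34.8 and 38.4 CPM in those labelled wild type, with a log2 fold change whose interval ran from -0.33 to 0.79. With the counts of both added, the level was 107, 108 and 107 CPM in the libraries labelled knockout and 173, 121 and 123 CPM in those labelled wild type. The summed log2 fold change was -0.37 ± 0.17 (SE, edgeR adjusted p = 0.267), still without overlap between the groups.

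Slc39a1, a zinc importer of the plasma membrane, was at 77.5, 81.1 and 74.1 CPM in the libraries labelled knockout and at 118, 98.1 and 84.3 CPM in those labelled wild type. Those groups did not overlap (log2 fold change -0.37 ± 0.15 SE, edgeR adjusted p = 0.225, and -0.04 with total counts). The importers with manganese among their cargo also had negative log2 fold changes that did not pass. Slc39a8, which reclaims manganese from bile, had 13.8 ± 2.07 CPM in the libraries labelled knockout and 17.6 ± 0.813 CPM in those labelled wild type (-0.35, edgeR adjusted p = 0.238). Slc39a14, a hepatocyte importer of zinc, manganese and free iron that interleukin 6 induces, had 175 ± 50.2 CPM in the libraries labelled knockout and 224 ± 19.1 CPM in those labelled wild type (-0.35 with an interval of -0.84 to 0.14, edgeR adjusted p = 0.416). With total counts Slc39a8 was at -0.04 and Slc39a14 at -0.03. Labelled knockout replicate 1 held 232 CPM of Slc39a14, within the labelled wild-type range of 202 to 235 CPM.

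The remaining importers differed little or were scarce. Slc39a9, Slc39a11, Slc39a13 and the plasma membrane importer Slc39a3 had log2 fold changes of -0.03, -0.07, -0.12 and 0.15 with TMM, and of 0.30, 0.26, 0.22 and 0.49 with total counts. Slc39a2, a further plasma membrane importer, had 101, 84 and 90 counts in the libraries labelled knockout and 53, 136 and 142 in those labelled wild type (edgeR adjusted p = 0.363). Slc39a12, a brain importer, had 0, 0 and 12 counts in the libraries labelled knockout and 0, 0 and 4 in those labelled wild type, and was not tested.

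Slc11a1, the metal pump of the macrophage phagosome, was at 24.6, 20.3 and 22.8 CPM in the libraries labelled knockout and at 17.9, 11.2 and 10.6 CPM in those labelled wild type. All libraries labelled knockout stood above those labelled wild type, 1.70-fold on average (log2 fold change 0.77 ± 0.21 SE, edgeR adjusted p = 0.0950). It passed with DESeq2 (0.78, adjusted p = 0.0195), with total counts (1.10, edgeR adjusted p = 0.0383) and without labelled wild-type replicate 1 (1.04, edgeR adjusted p = 0.0316). Under the other 11 alternatives it did not pass. Of 8 macrophage markers edgeR called 1 as higher and 0 as lower, and 7 did not pass. They summed to 782 to 811 CPM in the libraries labelled knockout and 426 to 767 CPM in those labelled wild type, with labelled wild-type replicate 1 the highest of its group, and none was at 0. The markers did not move one way, since 3 of the 8 had higher and 2 had lower levels without overlap between the groups. Cd68, the called gene, had 39.4 ± 8.06 CPM in the libraries labelled knockout and 13.5 ± 3.10 CPM in those labelled wild type. Lyz2, the largest part of the sum in the libraries labelled knockout, had 333 ± 120 CPM there and 111 ± 42.9 CPM in those labelled wild type. Clec4f, Marco and Timd4 had log2 fold changes of -0.91, -1.39 and -1.33 (edgeR adjusted p = 0.496, 0.300 and 0.255). Adgre1, Csf1r and Cd5l had positive ones of 0.92, 0.35 and 0.16 (edgeR adjusted p = 0.0510, 0.309 and 0.863). The part of macrophage number in the level of Slc11a1 was not tested. Slc11a2, the proton-coupled importer of iron and manganese, had 32.8 ± 6.11 CPM in the libraries labelled knockout and 38.9 ± 11.6 CPM in those labelled wild type (log2 fold change -0.25, edgeR adjusted p = 0.625, and 0.08 with total counts).

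**Figure D3:**
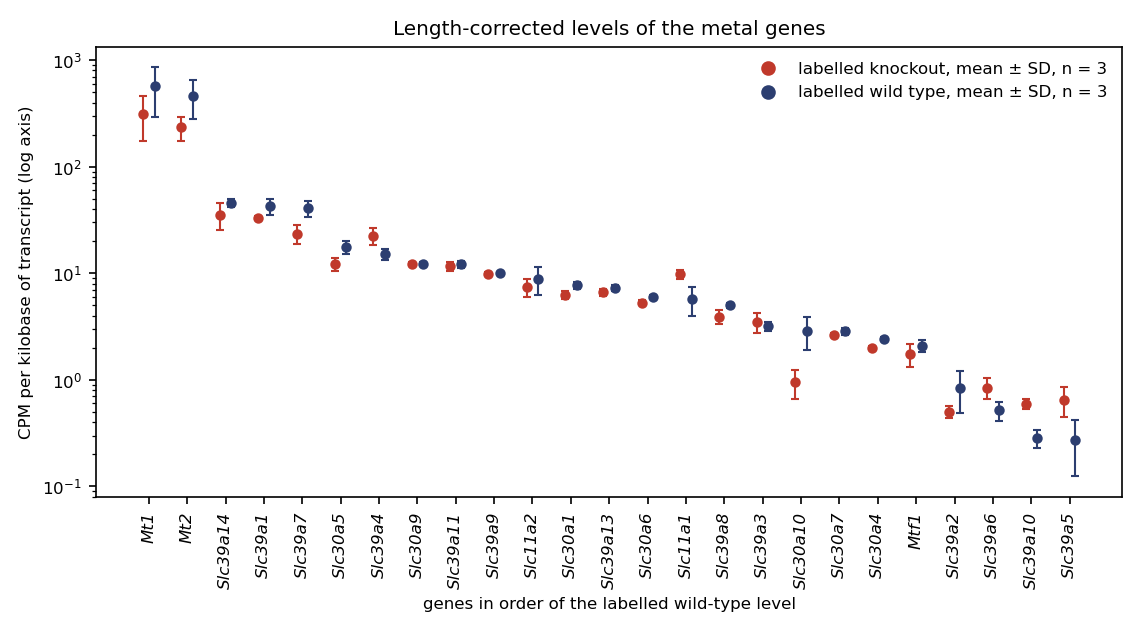
Mean level ± SD (n = 3) of 25 of the genes in CPM per kilobase of transcript on a log axis, labelled knockout left and labelled wild type right for each gene, in order of the labelled wild-type level. Mt1 and Mt2 lie above all transporters in both groups, and Slc30a10 and Slc39a10 show gaps between the groups.

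Divided by the length of the longest coding transcript (GENCODE vM21), Mt1 had a level of 315 ± 141 CPM per kilobase in the libraries labelled knockout and 574 ± 279 in those labelled wild type. Mt2 followed with 234 ± 58.6 CPM per kilobase in the libraries labelled knockout and 465 ± 187 in those labelled wild type, within the spread of Mt1. Next came Slc39a14 with 35.6 ± 10.2 CPM per kilobase in the libraries labelled knockout and 45.4 ± 3.88 in those labelled wild type, and Slc39a1 with 32.8 ± 1.48 in the libraries labelled knockout and 42.4 ± 7.16 in those labelled wild type. Slc30a10 stood at rank 21 of 30 in the libraries labelled knockout and at rank 18 in those labelled wild type, and Slc11a1 at rank 11 in the libraries labelled knockout and rank 15 in those labelled wild type. Mtf1 had 1.73 ± 0.427 CPM per kilobase in the libraries labelled knockout and 2.08 ± 0.271 in those labelled wild type. These levels depend on the transcript chosen for the length.

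**Figure D4:**
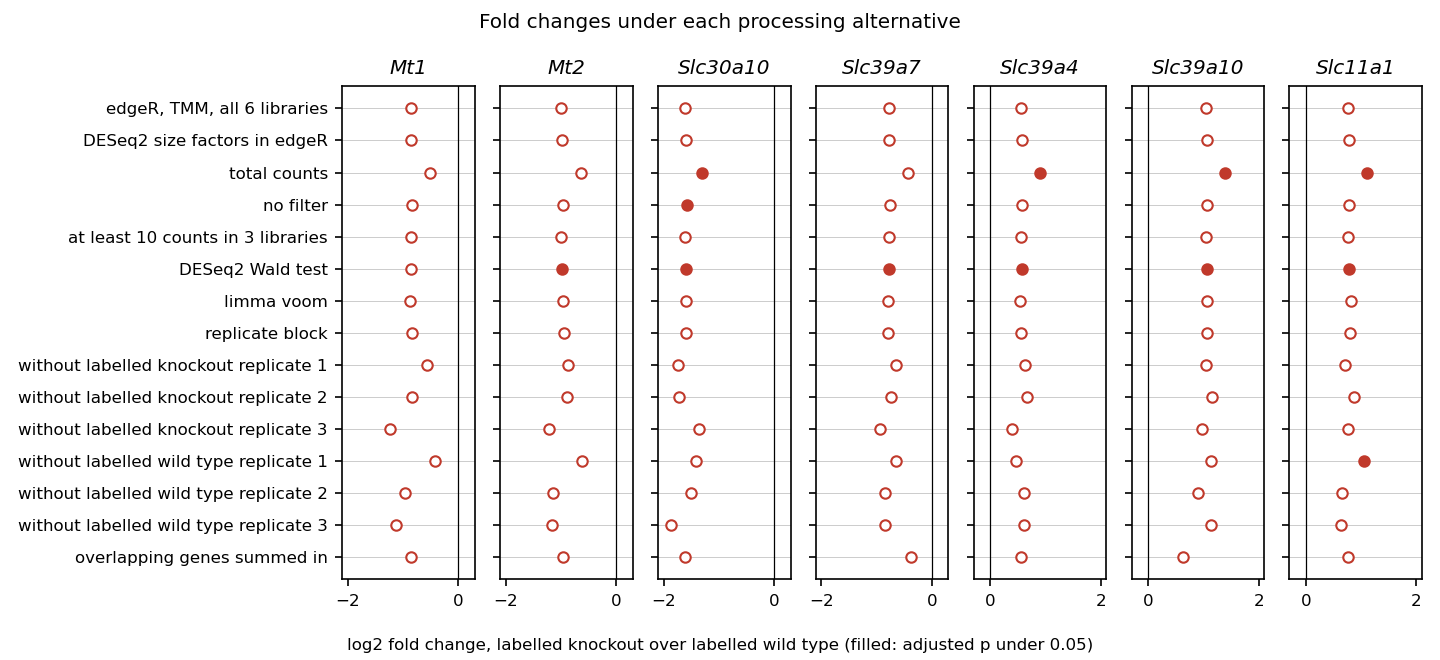
Log2 fold change, labelled knockout over labelled wild type (x axes), of 7 genes under each way of processing the counts (rows), filled where the adjusted p was under 0.05. The direction of these 7 genes is the same in all rows, while calls appear mainly under DESeq2 and total counts.

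Lists of related genes fixed alongside were read against the same background. Of 7 other zinc and manganese transport genes 4 were tested and 0 were called by edgeR, with 1 higher and 0 lower at an unadjusted p under 0.05. The Golgi manganese transporter Tmem165 was at 9.86, 8.74 and 16.0 CPM in the libraries labelled knockout and at 7.86, 6.27 and 6.89 CPM in those labelled wild type (log2 fold change 0.72 ± 0.25 SE, edgeR adjusted p = 0.160). The channel kinase Trpm7 was at 42.4, 45.2 and 43.6 CPM in the libraries labelled knockout and at 45.4, 49.6 and 47.9 CPM in those labelled wild type (-0.12, edgeR adjusted p = 0.579). Among 13 enzymes that use zinc or manganese, edgeR called 1 as lower and 0 as higher, 12 did not pass, and the median log2 fold change was -0.24. The called gene was Car14, a membrane carbonic anhydrase, which fell to 16.9 ± 4.50 CPM in the libraries labelled knockout, against 39.0 ± 6.02 CPM in those labelled wild type (log2 fold change -1.20 ± 0.21 SE, edgeR adjusted p = 0.0462). Its libraries were at 13.7, 15.0 and 22.1 CPM when labelled knockout and at 32.0, 42.7 and 42.1 CPM when labelled wild type, without overlap. The call held under 8 of 14 alternatives. It was lost with total counts (-0.85, edgeR adjusted p = 0.0791), limma voom (adjusted p = 0.0547), the replicate block (0.0546) and without labelled knockout replicate 1 (0.143) or labelled wild-type replicate 2 (0.183) or 3 (0.147).

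Metallothionein inducers other than metals were followed through 12 genes that respond to glucocorticoids or interleukin 6. Among them edgeR called 1 as higher and 0 as lower, 11 did not pass, and the median log2 fold change was -0.11. Zbtb16, a zinc finger factor induced by glucocorticoids, rose to 14.6 ± 5.85 CPM in the libraries labelled knockout, against 2.61 ± 1.04 CPM in those labelled wild type (log2 fold change 2.49 ± 0.40 SE, edgeR adjusted p = 0.0453). Its libraries were at 20.5, 8.81 and 14.6 CPM when labelled knockout and at 1.48, 2.80 and 3.54 CPM when labelled wild type, without overlap. This call too held under 8 of 14 alternatives. It was lost with limma voom (adjusted p = 0.0630), the replicate block (0.0809) and without labelled knockout replicate 1 (0.141) or 3 (0.0736) or labelled wild-type replicate 2 (0.182) or 3 (0.133). Over the list 4 log2 fold changes were positive and 8 negative. Saa1, Saa2, Stat3, Il6ra and Socs3, the genes tied to interleukin 6, were all negative with TMM. The lowest was that of Saa2, an acute-phase apolipoprotein (-4.77 ± 1.08 SE, edgeR adjusted p = 0.0785). Saa1 was at -4.09 ± 0.90 (SE, edgeR adjusted p = 0.0724), and neither gene had groups that overlapped. Stat3, Il6ra and Socs3 were at -0.61, -0.19 and -0.02 (edgeR adjusted p = 0.247, 0.781 and 0.994), with overlap. Of the remaining genes Zbtb16, Fkbp5, Sgk1 and Dusp1 were positive and Tsc22d3, Per1 and Tat negative. Apart from Zbtb16, these genes were named after their values were seen. The part of either inducer in the levels of Mt1 and Mt2 was not tested.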

How the data were processed

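The members and lists were chosen with earlier results of these data known. The authors deposited raw whole-number read counts per gene, with 1 column for each of 6 liver libraries, and no column was pooled. The submitters' processing notes name the build GRCm39 and edgeR, without versions or roles. The aligner, counter, annotation release and use of strand in counting are not given in the sources used here. Per the labels' protocols, RNA was poly(A)-selected and the second strand was marked with dUTP, so reads of overlapping genes on opposite strands can be told apart only if counting used strand.

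Column names matched the sample titles, which gave group and replicate number. Total counts ran from 57886524 to 70965999, and no library repeated another of its group (chi-square per gene of at least 63.0). Libraries of different groups were not compared in this way. Genes were kept by filterByExpr (17606 of 30029), scaled by TMM and tested by robust quasi-likelihood in edgeR 4.0.16 (R 4.3.3), with DESeq2 1.42.0 and limma 3.58.1 for alternatives. P-values were adjusted by Benjamini-Hochberg over all tested genes, and calls were made below 0.05. Standard errors come from the F statistic and intervals are at 95%. Floors of 3 counts and intervals cover counting error and the spread as modelled, and amplified reads are not independent molecules. The fit was tested on simulated data.

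Values in every library are given for Mt1, Mt2, Mtf1 and the 10 other tested members with the smallest p, and from each related list for its called genes or, with none, the 2 with the smallest p. Overlapping genes, Slc39a14 and low-count members were named after their values were seen. Promoter windows are RefSeq's, GRCm38.p6, and lengths came from GENCODE vM21 (all 30 members matched by identifier). The alternatives were DESeq2 size factors, total counts, no filter, 10 counts in 3 libraries, DESeq2, limma voom, the replicate number as a block and each library left out. Adding the counts of Gm20427 to Slc39a7, of Gm45774 to Mt2 and of Gm28151 to Slc39a10 was chosen after seeing the data.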

Additional observations from a re-analysis of the deposited data

How the results depend on the processing

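The count of 0 called members stood with DESeq2 size factors, the filter of 10 counts in 3 libraries, limma voom, the replicate block and the summing of overlapping genes. It became 4 with total counts, 1 without a filter and 6 with DESeq2, and ran from 0 to 1 with each library left out. Over all genes the 253 calls became 1008, 473 and 1867 under those 3 settings, 69 with limma voom and 4 with the replicate block, and ran from 0 (edgeR without labelled wild-type replicate 2, with 2424 genes at an unadjusted p under 0.05) to 912 (without labelled knockout replicate 2). With total counts, which move the median of all genes, the log2 fold changes that turned positive were Mtf1 0.059, Slc30a1 0.026, Slc30a4 0.029, Slc30a6 0.14, Slc30a7 0.21, Slc30a9 0.31, Slc39a9 0.30, Slc39a11 0.26, Slc39a13 0.22 and Slc11a2 0.078. Slc30a9 was at 0.0016 without a filter. With each library left out Slc30a3 ran from -0.27 to 1.20, Slc30a9 from -0.052 to 0.016, Slc39a3 from -0.046 to 0.26 and Slc39a9 from -0.061 to 0.0057. Nothing says whether same-numbered libraries share more than a number. Correlations of their deviations ran from -0.0457 to -0.00386, and those of differently numbered libraries from -0.0151 to 0.0361. Deviations within a group sum to 0, so these values cannot exclude a shared batch. The replicate block changed no call of a member. The causes were not tested. With overlapping genes summed Slc39a7 was at -0.37 and Slc39a10 at 0.63. Members with under 1 CPM (6 of 30) rest on few counts.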
